A study of Arabidopsis thaliana with 36 samples.

Results

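The core cell cycle genes described here are 45 Arabidopsis thaliana genes taken by locus identifier from 32833 identifiers in each count table. They comprise 7 A-type, 8 B-type and 9 D-type cyclins, 5 cyclin-dependent kinases (CDKA;1 and the CDKB genes), 9 CDK inhibitors (KRP1 to KRP7, SIM and SMR1), 6 genes of the E2F, DP and retinoblastoma-related group, and the kinase gene WEE1. They were chosen by family and not by their values, although earlier results of these data were known. Roots of Col-0 seedlings, 7 days old and grown on mesh over 1 mM KNO3, were transferred 2 h after dawn to fresh plates with 1 mM or 10 mM KNO3 and sampled after 15, 45, 90 and 180 min. In the 0 min group the mesh was picked up and put back on its own 1 mM KNO3 plate. Each of the 9 groups has 4 libraries, 1 from each of 4 batches, and each library joined seedlings of 2 plates. The time since transfer, the time of day and the change to fresh medium advance together after 0 min and cannot be told apart.

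Cells enter and leave the cell cycle through CDKs, kinases that are active only with a bound cyclin. D-type cyclins with CDKA act at the start of the cycle, where they lead to phosphorylation of the retinoblastoma-related protein RBR1 and so free E2F and DP factors to switch on genes for DNA synthesis. A-type cyclins act mainly during DNA synthesis and after it, and B-type cyclins with CDKB kinases act on entry into mitosis. KRP, SIM and SMR proteins bind and inhibit cyclin-CDK complexes, and WEE1 inhibits CDKs by phosphorylation when DNA is damaged. In roots these genes act in the tip meristem and in the pericycle cells that found lateral roots. Whole roots were sampled here, so fewer dividing cells and less RNA per cell cannot be told apart.

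Without a batch term, 3 of the 45 genes passed a test against 0 min, the inhibitors KRP6 and KRP1 and the D-type cyclin CYCD3;1. The share of all genes called in at least 1 comparison with 0 min was not computed. No single comparison with 0 min called more than 1 of the 45, against 5.16% to 7.53% of all 18768 genes tested. With a batch term, single comparisons called 1 to 3 of the 45, against 7.13% to 12.2% of all genes. The batch term added KRP2, KRP7 and CYCD3;3. Without the batch term, KRP6 was 1.51-fold higher 15 min after transfer to either concentration. KRP1 was at 0.483 and 0.456 of its 0 min level at 45 min on 1 mM and at 90 min on 10 mM. CYCD3;1 was at 0.517 of its 0 min level at 180 min on both. No core cell cycle gene passed the test between 10 mM and 1 mM KNO3, and at each single time 0 of all 18768 genes passed it.

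The stretches of 250 bases before the annotated starts of 4 genes are shown because KRP6, KRP1 and KRP2 carry inhibitor changes described below, and CYCB1;1 stands for the mitotic cyclins that did not pass a test. They were read from RefSeq's TAIR10.1 assembly; the count tables hold no coordinates, the submitters' processing notes name the build TAIR10, and genes were matched by locus identifier, all 45 with a match. Capitals mark letters that match a searched motif on either strand. The positions are chr3:6617952-6618201 (minus strand) for KRP6, chr2:9978091-9978340 (minus) for KRP1, chr3:18800056-18800305 (plus) for KRP2 and chr4:17624309-17624558 (minus) for CYCB1;1.
KRP6: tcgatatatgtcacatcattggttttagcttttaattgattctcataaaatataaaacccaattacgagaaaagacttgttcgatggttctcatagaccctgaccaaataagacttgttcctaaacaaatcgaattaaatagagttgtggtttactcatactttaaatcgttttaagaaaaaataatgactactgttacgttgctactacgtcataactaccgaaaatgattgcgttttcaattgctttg
KRP1: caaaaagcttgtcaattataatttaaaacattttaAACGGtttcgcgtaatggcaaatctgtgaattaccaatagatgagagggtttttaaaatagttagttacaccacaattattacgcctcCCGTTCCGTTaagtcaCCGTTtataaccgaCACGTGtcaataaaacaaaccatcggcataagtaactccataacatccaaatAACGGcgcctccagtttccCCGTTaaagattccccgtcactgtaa
KRP2: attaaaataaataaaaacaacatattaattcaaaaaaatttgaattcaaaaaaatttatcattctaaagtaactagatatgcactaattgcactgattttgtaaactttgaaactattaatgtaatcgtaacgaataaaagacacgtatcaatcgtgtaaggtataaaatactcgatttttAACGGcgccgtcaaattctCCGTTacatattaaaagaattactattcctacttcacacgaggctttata
CYCB1;1: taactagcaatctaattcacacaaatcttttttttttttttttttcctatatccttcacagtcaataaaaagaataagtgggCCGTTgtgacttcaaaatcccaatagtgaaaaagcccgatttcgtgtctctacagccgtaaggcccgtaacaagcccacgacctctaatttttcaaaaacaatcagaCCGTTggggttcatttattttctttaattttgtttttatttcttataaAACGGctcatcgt

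The mitosis-specific activator (MSA) core AACGG, bound by MYB3R factors, occurred in these windows before 6 of 8 B-type cyclin genes, with 3 matches for CYCB1;1 and 0 for CYCB1;4 and CYCB2;4. It occurred before 9 of the 17 genes of the S to mitosis phases (52.94%), 5 of the 17 G1 to S genes (29.41%) and 5 of the 10 inhibitor genes including WEE1 (CDKA;1, which acts in all phases, is in none of these sets), against 20.57% of 27438 protein-coding genes. In the KRP1 window it stood beside the G-box CACGTG, and the KRP2 window held it at 2 positions. The KRP6 window held none of the motifs searched. An E2F site (TTTCCCGC, TTTGGCGC, TTTGCCGC or TTTCGCGC) occurred before 2 of the 45 genes, among them RBR1, against 1.41% of protein-coding genes. The clock-related CCA1-binding site AAAAATCT occurred before 3 of 45 (against 6.688%), the G-box before CYCB2;3 and KRP1 (against 6.487%), and the evening element AAAATATCT and the rapid wound response element CGCGTT before 0 of 45 (against 2.362% and 2.588%). Both strands were searched, and no searched word contains another. A match describes letters in a window and shows no binding.

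**Figure D1:**
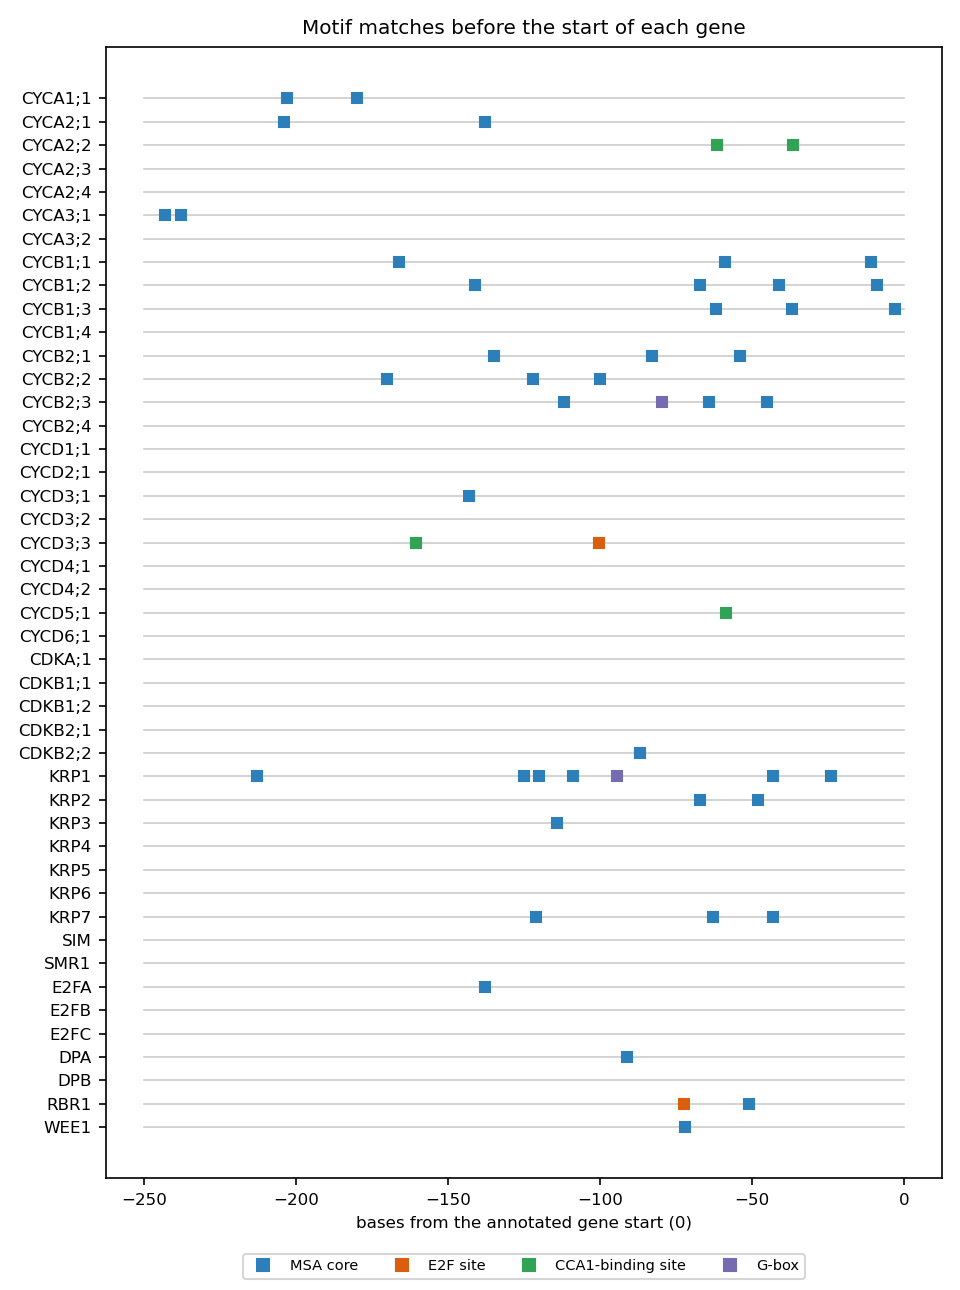
Motif matches in the 250 bases before the annotated start of each of the 45 genes; the x axis gives bases from the start (0) and each square is one match. The MSA core stands before 6 of 8 B-type cyclin genes and before 1 of 9 D-type cyclin genes.

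All 45 genes had enough reads to be tested among 18768 genes. Library totals ran from 1376404 to 7512410 reads (median 5126926), and the 45 genes had from 238 reads over all 36 libraries (CYCA2;1) to 9275 (CDKA;1). Replicate 4 of the 1 mM 45 min group was the shallowest library and had the lowest median correlation with its group, 0.915. Markers of the root hair, endodermis and xylem lists were detected, with summed levels of 200.4 to 350.4, 276 to 578 and 195 to 287 CPM (reads relative to library size, scaled by the trimmed mean of M values) over the 36 libraries. Photosynthesis genes of the shoot summed to 21.1 to 43.2 CPM. For 10 genes (CYCA2;3, CYCD3;2, CYCD6;1, CDKB1;1, CDKB1;2, CDKB2;1, CDKB2;2, KRP4, E2FA and RBR1) the 3' end lies within an annotated gene on the opposite strand. The use of strand in counting is not given in the sources used here, so reads of both partners may be mixed and these 10 levels are uncertain.

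Most core cell cycle genes kept group means within 2-fold over the 9 groups, and no such range was computed for all genes. The ratio of the highest to the lowest group mean had a median of 1.48, and it was under 2 for 36 of 45 genes and under 1.5 for 25. The CDK gene CDKB2;2, whose product acts at mitosis, had group means from 32.8 to 38.9 CPM, and CYCB2;4 from 20.6 to 23.6 CPM. The widest ratio, 3.05, was that of CYCA2;1, whose group mean of 2.75 CPM at 45 min on 1 mM includes 7.05 CPM in the shallowest library, against 1.06 to 1.62 CPM in the other 3. Summed over the 17 S to mitosis genes, levels were 284 ± 21.1 CPM at 0 min (SD, n = 4) and had group means between 264 and 287 CPM after transfer. The 17 G1 to S genes summed to 221 ± 20.3 CPM at 0 min and to 195 ± 4.57 CPM at 180 min on 10 mM. The 10 inhibitor genes summed to 168 ± 27.3 CPM at 0 min and 146 ± 11.9 and 144 ± 15.7 CPM at 15 min on 1 mM and 10 mM. For the G1 to S sum the libraries of 180 min on 10 mM (187.9 to 197.7 CPM) all lie below those of 0 min (200.1 to 244.3 CPM). Those of 180 min on 1 mM (194.5 to 216.9 CPM) overlap both groups, and no difference between these sums was tested. The fall on 10 mM was not shared by all G1 to S genes. From 0 min to 180 min on 10 mM the group mean of CYCD3;1 went from 34.27 to 16.89 CPM. That of CYCD3;3 went from 38.98 to 32.76 CPM, and that of CYCD1;1 rose from 19.79 to 22.92 CPM. The inhibitor sums at 0 min and 15 min overlap.

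**Figure D2:**
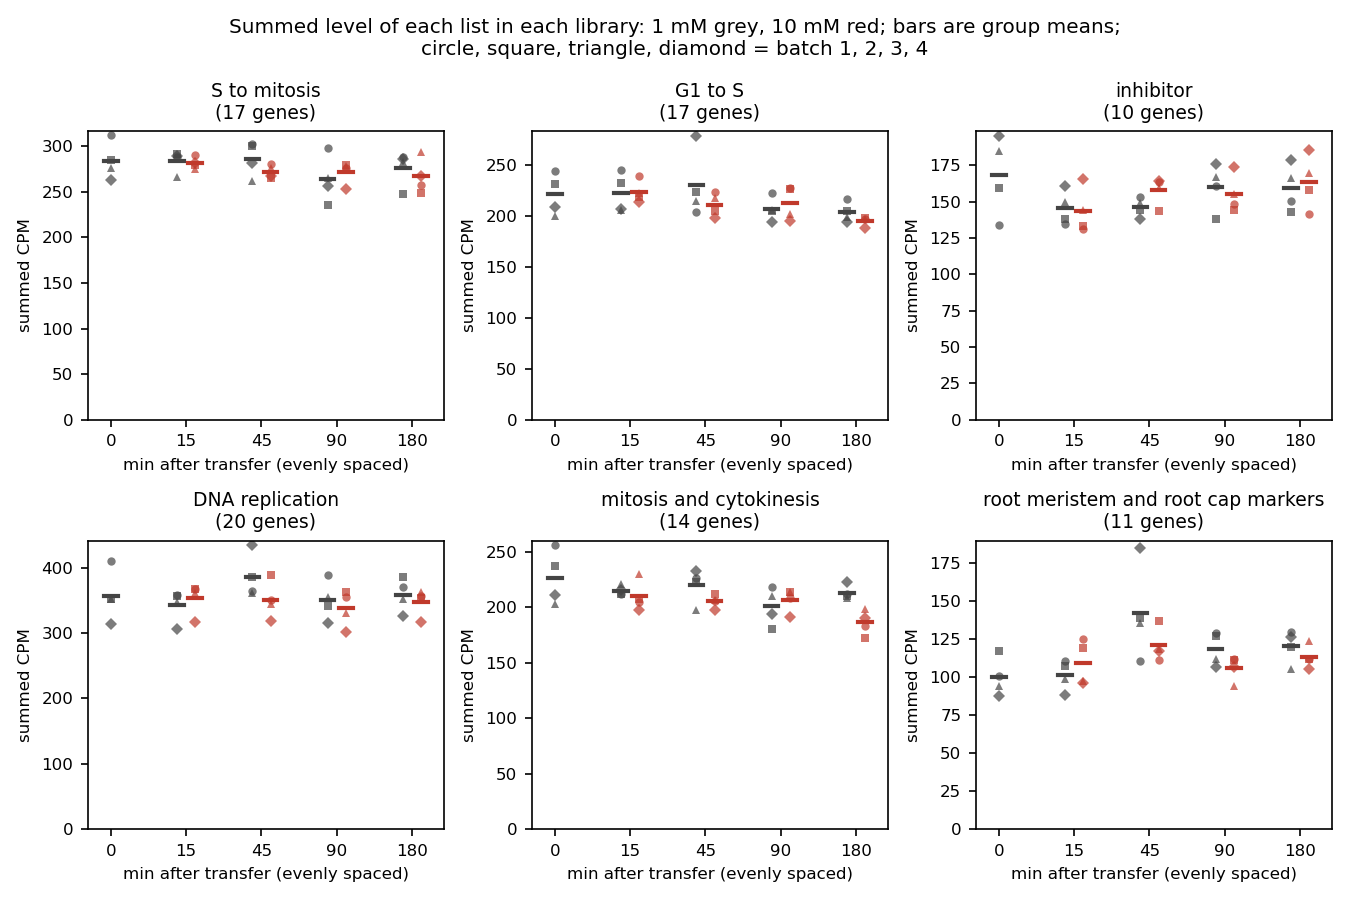
Summed CPM of 6 gene lists in each library against minutes after transfer (categories evenly spaced), with 1 mM in grey, 10 mM in red, symbols for the 4 batches and bars at group means. The S to mitosis sum lies between 235.8 and 312.6 CPM in all 36 libraries, and the root meristem list is highest, at 184.8 CPM, in replicate 4 of 1 mM 45 min.

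Whether the supply of nitrate changed the cell cycle genes was asked by comparing 10 mM with 1 mM at the same time after the same transfer. At 15, 45, 90 and 180 min edgeR's quasi-likelihood test called 0 of the 45 genes, and it called 0% of the 18768 genes tested at each time (Benjamini-Hochberg adjusted p of 0.05). With the batch as a block it again called 0 of 45 at each time, against 0.0107%, 0%, 0.048% and 0% of all genes. DESeq2 also called 0 of 45 at each time, and 0 of all genes. At an unadjusted p under 0.05 there were 2, 3, 0 and 1 of the 45 (4.44%, 6.67%, 0% and 2.22%), against 2.59%, 4.88%, 4.65% and 1.97% of all genes. Averaged over the 4 times, 0 of 45 were called, against 0.016% of all genes (0 of 45 and 0.234% with the block), with 2 at an unadjusted p under 0.05 (4.44%, against 4.81% of all genes). In the test that the difference changes between times 0 of 45 were called, against 0% of all genes, with 1 (DPA, a partner of E2F factors) at an unadjusted p under 0.05 (2.22%, against 2.16% of all genes).

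These averages bound how large a steady difference could be. Over the 4 times the log2 fold change of 10 mM against 1 mM ran from -0.34 for CYCB2;3 to 0.24 for CYCB2;1, with a median of -0.026 against -0.0030 for all genes. The 95% confidence interval of every one of the 45 genes lay within a 2-fold change in either direction, and that of 39 within 1.5-fold. The widest bounds were -0.75 for CYCA2;1 and 0.61 for CYCB2;1, both genes of few reads. At single times the median half-width of the intervals was 0.45 to 0.48, and 37 to 41 of the 45 lay within 2-fold.

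**Figure D3:**
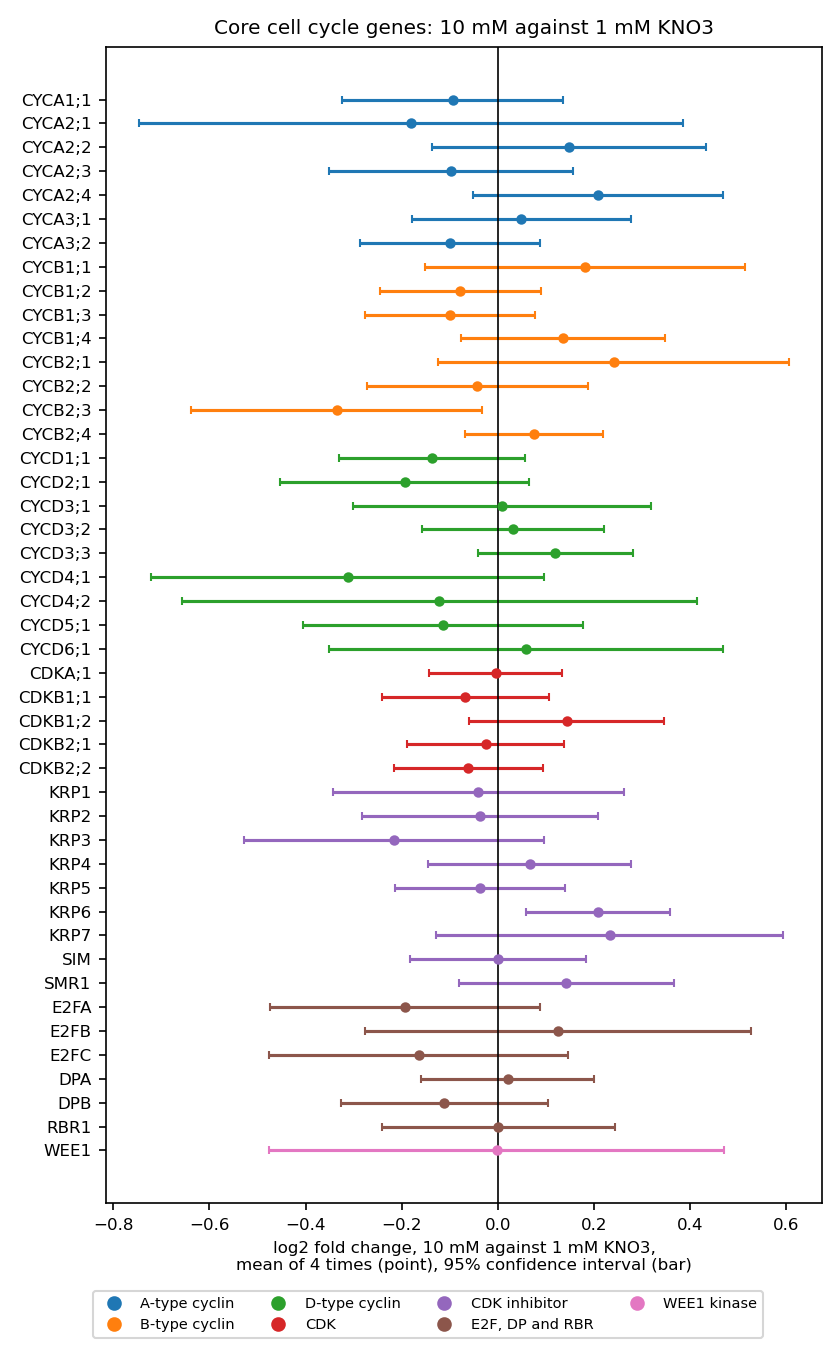
Log2 fold change of 10 mM against 1 mM KNO3 averaged over 4 times (points) with 95% confidence intervals (bars) for the 45 genes, coloured by family. Every interval lies within 1 log2 unit of 0, and those of CYCB2;3 and KRP6 do not include 0.

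Genes often used to follow division and lateral root initiation were not called. CYCB1;1 (AT4G37490), a mitotic cyclin whose promoter is a common reporter of dividing cells, ranged from 0 to 7.41 CPM over the 36 libraries (median 3.88), with the 0 in the shallowest library, and its average log2 difference was 0.18 ± 0.16 (SE; 95% interval -0.15 to 0.51; adjusted p = 1.00, edgeR). CYCD6;1, a D-type cyclin of formative divisions, ranged from 0.955 to 4.80 CPM (median 2.19) with a difference of 0.059 ± 0.20 (interval -0.35 to 0.47, adjusted p = 1.00). CDKB2;1 ranged from 36.7 to 63.4 CPM (median 46.0) with a difference of -0.026 ± 0.081 (adjusted p = 1.00). None of these 3 intervals excludes 0, and that of CDKB2;1, from -0.19 to 0.14, is the narrowest of them. SIM, an inhibitor that acts where cells replicate DNA without dividing, ranged from 19.7 to 56.2 CPM with a difference of -0.00041 ± 0.090 and an interval from -0.18 to 0.18. E2FA, an activating E2F factor, ranged from 3.46 to 9.87 CPM with a difference of -0.19 ± 0.14, and CYCD4;1, a D-type cyclin, from 1.04 to 6.72 CPM with -0.31 ± 0.20 (adjusted p = 1.00 for each). CYCD4;1 had the smallest unadjusted p at 15 min. There it stood at 1.27, 2.87, 4.88 and 6.72 CPM in replicates 1 to 4 on 1 mM and at 2.01, 1.27, 3.96 and 1.98 CPM on 10 mM, with a log2 difference of -0.96 (unadjusted p = 0.0264, adjusted p = 1.00, edgeR). The concentrations overlap, and replicate 1 was higher on 10 mM while the other 3 were lower.

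KRP6 had the smallest unadjusted p for the average over the 4 times. At 45 min it stood at 20.01, 17.4, 18.2 and 23.3 CPM in replicates 1 to 4 on 1 mM and at 25.4, 23.6, 22.1 and 27.7 CPM on 10 mM. It was higher on 10 mM in each of the 4 batches, although the groups overlap. The difference at 45 min was 0.36 (adjusted p = 0.970, edgeR) and the average over the times 0.21 ± 0.07 (unadjusted p = 0.00735, adjusted p = 0.866), so neither passed the test.

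Against 0 min, which asks how the cell cycle genes behave after transfer, few genes passed. On 1 mM, edgeR called 1 of 45 genes at 15 min, 1 at 45 min, 0 at 90 min and 1 at 180 min, against 6.92%, 6.99%, 7.14% and 7.53% of all genes. On 10 mM it called 1 at 15 min, 0 at 45 min, 1 at 90 min and 1 at 180 min, against 5.16%, 5.83%, 6.38% and 6.85%. At 90 min on 1 mM 5 of 45 genes (11.1%) had an unadjusted p under 0.05, against 17.4% of all genes, and DESeq2 called 1 (CYCD3;3) among 1477 genes in all. At 45 min on 10 mM 3 of 45 (6.67%) had such a p, against 14.6% of all genes, and DESeq2 called 0 among 1192 in all. Both series of comparisons share the 4 libraries of 0 min, so their values are given side by side only. The median log2 change of the 45 genes was between -0.064 and 0.0058 over the 8 comparisons, and that of all genes between -0.027 and 0.0039. When the batch was fitted as a block, edgeR called 3, 2, 3 and 2 of 45 on 1 mM (against 9.63%, 11.7%, 11.8% and 12.2% of all genes) and 2, 2, 2 and 1 on 10 mM (against 7.13%, 9.23%, 10.7% and 10.8%). In a test for any difference among the 9 groups 4 of 45 were called (CYCD3;3, KRP1, KRP2 and KRP6), against 19.9% of all genes, and with the block 6 of 45 (also CYCD1;1 and CYCD3;1) against 29.4%. In 40 fits that left out a library or a batch, the calls of KRP6 and KRP1 held throughout, and those of CYCD3;3 and KRP2 were lost in 10 and 24.

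**Figure D4:**
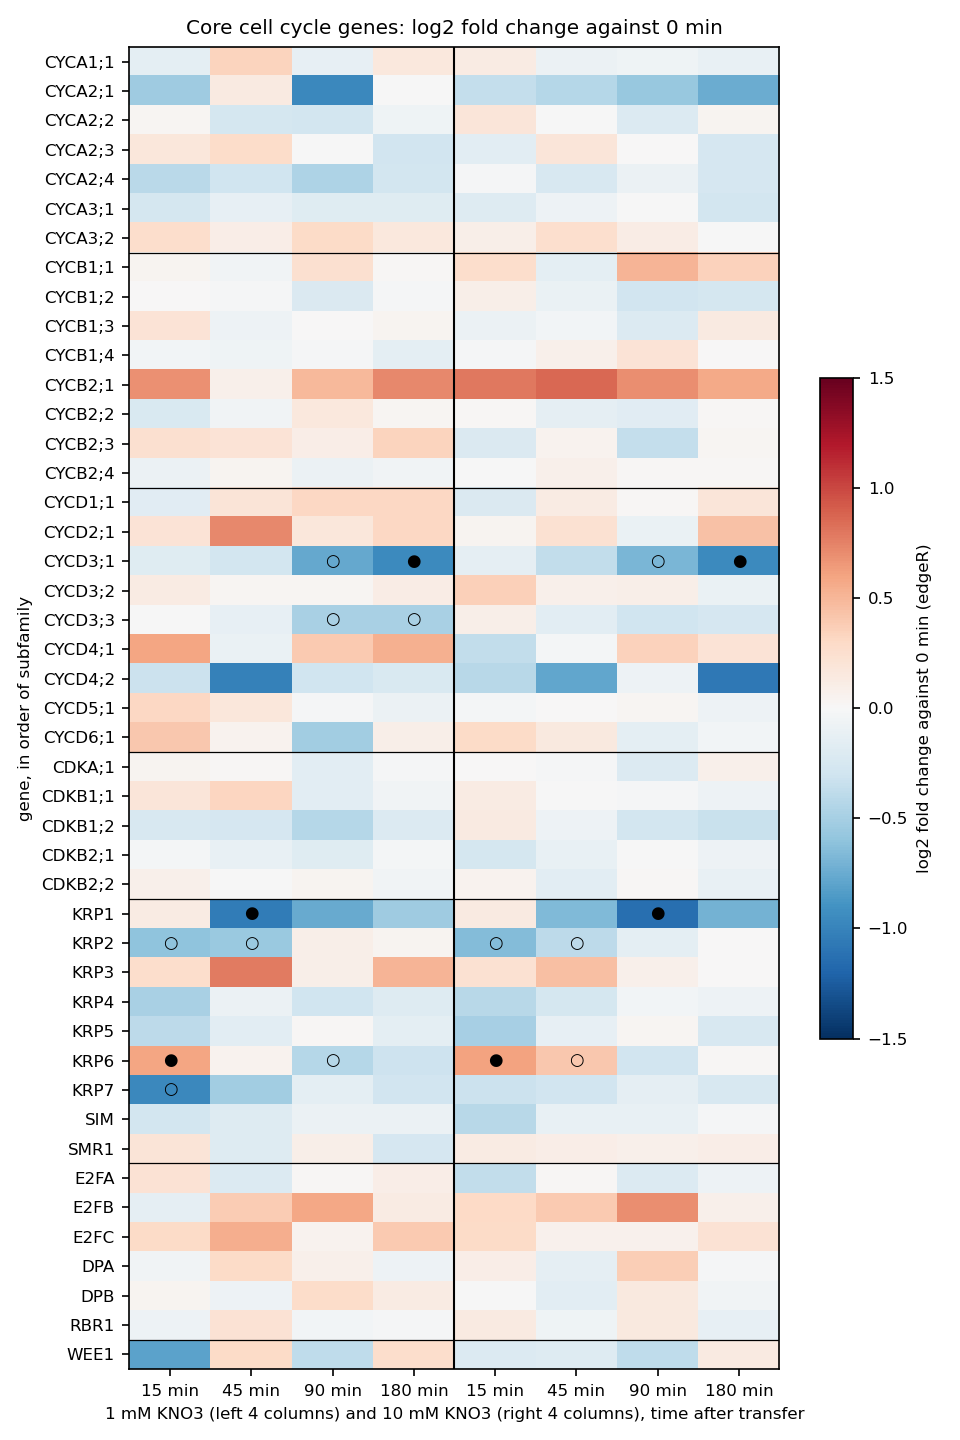
Log2 fold change against 0 min of the 45 genes (rows, by family) at 4 times on 1 mM (left) and 10 mM KNO3 (right). Filled dots mark genes called by edgeR without a block and open dots those called only with the batch as a block; the dots fall on KRP1, KRP2, KRP6, KRP7, CYCD3;1 and CYCD3;3.

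Among the cyclins, 0 of 7 A-type and 0 of 8 B-type genes passed any test against 0 min, with or without the block. For this and the other family counts below, the share of all genes called in at least 1 of these tests was not computed. Single tests called 5.16% to 7.53% of all genes, or 7.13% to 12.2% with the block. The A-type genes, which act through DNA synthesis and into mitosis, had median log2 changes from -0.25 to 0.11 over the 8 comparisons, and the B-type genes from -0.072 to 0.054. The highest value among them was that of CYCB2;1, 0.86 at 45 min on 10 mM (unadjusted p = 0.0260, adjusted p = 0.230, edgeR), a gene listed at 0 in 1 library of 0 min. Of the D-type cyclins, CYCD3;1 passed, and CYCD3;3 passed with the block. Both belong to the CYCD3 group, which responds to cytokinin and keeps cells dividing.

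CYCD3;1 (AT4G34160) fell late after transfer. At 0 min it stood at 52.3, 41.8, 20.9 and 22.1 CPM in replicates 1 to 4. At 180 min it stood at 19.6, 21.4, 13.4 and 13.98 CPM on 1 mM and at 17.1, 20.9, 14.6 and 15.0 CPM on 10 mM. Replicates 1 and 2 are the high ones at each of these times, the 1 mM group overlaps the 0 min group by 1 library, and the 10 mM group lies below it. The log2 change was -0.95 ± 0.31 on 1 mM (adjusted p = 0.0493, edgeR) and -0.95 ± 0.30 on 10 mM (adjusted p = 0.0471), lower in 4 of 4 batches for both. Within batches 1 to 4 the log2 change was -1.39, -0.95, -0.62 and -0.65 on 1 mM and -1.58, -0.98, -0.50 and -0.55 on 10 mM. The calls were lost without replicate 1 or 2 of 0 min, without replicate 1, 3 or 4 of the 180 min group compared, without any one batch and, on 1 mM, without replicate 4 of 1 mM 45 min (adjusted p up to 0.221 on 1 mM and 0.228 on 10 mM). On 1 mM the call was also lost when only the 8 libraries compared were fitted. With the batch as a block the changes at 180 min were -0.90 and -0.89 (adjusted p = 0.000414 and 0.000350), and CYCD3;1 was also called at 90 min, at -0.71 on 1 mM and -0.68 on 10 mM (adjusted p = 0.00487 and 0.00862). At 180 min the meristem marker PLT3 was higher than at 0 min on 1 mM, and 0 of the 10 tested meristem and root cap markers were called on 10 mM. The endodermis markers summed to 404 to 458 CPM at 180 min on 1 mM and 413 to 521 CPM on 10 mM. Their sums at 0 min were 358 to 419 CPM and overlap both groups. The part of these markers in the CYCD3;1 values was not tested.

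CYCD3;3 (AT3G50070) was described after its values were seen. It stood at 37.8, 46.5, 36.97 and 34.7 CPM at 0 min, at 31.2, 26.5, 26.6 and 27.4 CPM at 90 min and at 31.2, 30.99, 23.7 and 25.6 CPM at 180 min on 1 mM. At both times all 4 libraries lie below those of 0 min. The changes of -0.49 ± 0.16 missed the threshold without a block (adjusted p = 0.0553 at both times, edgeR) and passed with it (-0.48 and -0.50, adjusted p = 0.0041 and 0.00325). DESeq2 called both. On 10 mM the groups overlap at 90 and 180 min, with changes of -0.30 ± 0.16 and -0.26 ± 0.16 (adjusted p = 0.365 and 0.470), and the block did not call them (-0.31 and -0.28, adjusted p = 0.0967 and 0.154). Within batches 1 to 4 the log2 change on 10 mM was -0.15, -0.25, -0.43 and -0.35 at 90 min, lower in 4 of 4, and it was lower in 3 of 4 at 180 min. The difference between the concentrations was not called at any time (adjusted p of at least 0.995). Markers of other cells moved at the same times on 1 mM. At 90 min 1 of 4 root hair markers (COBL9, -0.67) was lower and 1 of 10 tested meristem and root cap markers (SHR, 0.59) was higher than at 0 min. With the block the root hair marker PRP3 was also called lower at 90 min, and COBL9 at 180 min. The root hair markers summed to 200.4 to 296 CPM at 90 min and 246 to 313 CPM at 180 min, against 309.5 to 350.4 CPM at 0 min, and the part of these markers in the CYCD3 values was not tested.

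CYCD3;2, the other gene of the group, ranged from 10.8 to 24.0 CPM and passed no test.

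Among the kinases 0 of 5 passed any test against 0 min. CDKA;1, the main CDK of the plant cycle, ranged from 37.3 to 65.2 CPM and its average difference between the concentrations was -0.0047 ± 0.068, the narrowest interval among the 45 genes. The CDKB genes, which act at the entry into mitosis, had group means within 1.5-fold.

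Of the 9 inhibitors, KRP6 and KRP1 passed without a block, and KRP2 and KRP7 with it. The share of all genes called in at least 1 of these tests was not computed. KRP6 (AT3G19150) stood at 18.6, 18.2, 19.1 and 18.1 CPM in replicates 1 to 4 at 0 min. At 15 min it stood at 30.5, 24.8, 26.2 and 30.9 CPM on 1 mM and at 25.2, 27.4, 26.6 and 31.9 CPM on 10 mM. Every library at 15 min lies above every library at 0 min. KRP6 rose by 0.59 ± 0.15 on the log2 scale on 1 mM (1.51-fold, 95% interval 1.23 to 1.85, adjusted p = 0.00468, edgeR) and by 0.60 ± 0.15 on 10 mM (1.51-fold, 1.24 to 1.86, adjusted p = 0.00559), in 4 of 4 batches each. Both calls held without any single library; without batch 4 the adjusted p was 0.0546 on 1 mM and 0.0852 on 10 mM, and without batch 2 it was 0.0654 on 10 mM.

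At later times KRP6 stood nearer to its 0 min level or below it. On 1 mM it stood at 12.01, 14.6, 12.1 and 15.6 CPM at 90 min, all below the 0 min libraries, with a log2 change of -0.43 ± 0.15 (adjusted p = 0.0802, edgeR). With the block this was called (-0.44, adjusted p = 0.0234), as was the value of 0.40 at 45 min on 10 mM (adjusted p = 0.0348). KRP6 had the smallest adjusted p among the 45 genes for any difference among the 9 groups, 5.26e-08, and kept that call without any single library or batch.

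KRP1 (AT2G23430) fell at 45 min on 1 mM and at 90 min on 10 mM. It stood at 3.11, 5.97, 8.67 and 9.31 CPM at 0 min, at 2.16, 3.52, 3.32 and 5.64 CPM at 45 min on 1 mM and at 2.46, 3.46, 3.20 and 3.73 CPM at 90 min on 10 mM. Replicate 1 was already low at 0 min and makes the groups overlap. The log2 change was -1.05 ± 0.31 at 45 min on 1 mM (adjusted p = 0.0288, edgeR) and -1.13 ± 0.29 at 90 min on 10 mM (adjusted p = 0.0102), lower in 4 of 4 batches for both. At 90 min on 1 mM it was -0.76 ± 0.28 (adjusted p = 0.107) and at 45 min on 10 mM -0.67 ± 0.28 (adjusted p = 0.214). The calls were lost on leaving out replicate 3 or 4 of 0 min (adjusted p up to 0.143 at 45 min and 0.0755 at 90 min), the 45 min call also without replicate 1, 2 or 3 of 1 mM 45 min or batch 2, and both without batch 3 or 4. The 45 min call was also lost when only the 8 libraries compared were fitted (-1.01, adjusted p = 0.189). The call for any difference among the 9 groups held in every fit without a library or a batch (adjusted p 0.000934 with all). At 45 min on 1 mM, PLT1, PLT3 and SHR of the 10 tested root meristem and root cap markers were also higher than at 0 min. That list's summed level there was 110, 139, 135 and 185 CPM in replicates 1 to 4, against 87.6 to 117 CPM at 0 min. The highest of these sums is that of the shallowest library. At 90 min on 10 mM 0 of the 10 were called, at 94.2 to 112 CPM. At 45 min on 1 mM and at 90 min on 10 mM the root hair marker COBL9 was called lower with the block only (-0.51 and -0.50). The part of these markers in the KRP1 values was not tested.

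**Figure D5:**
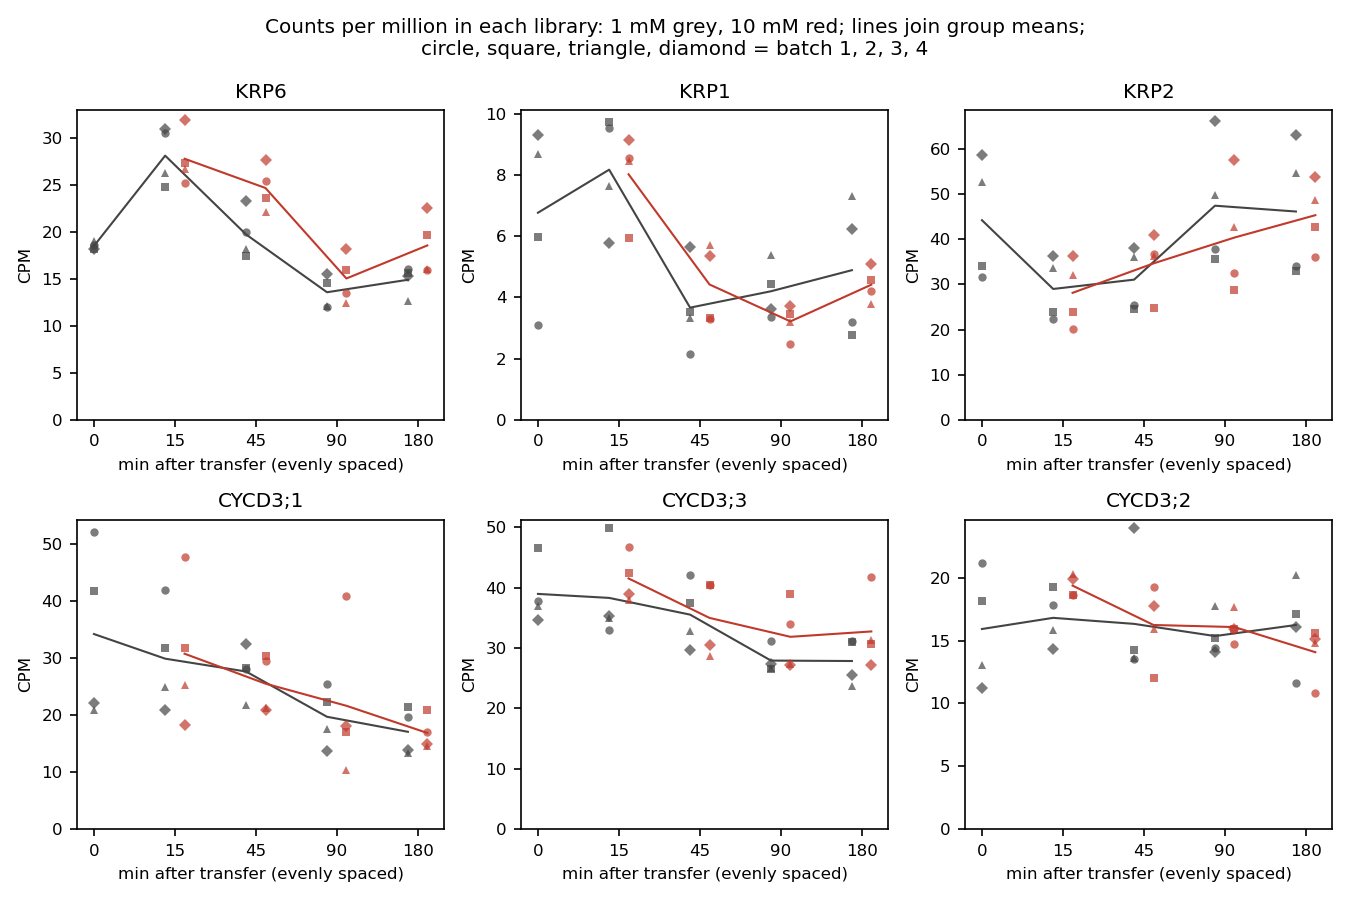
CPM of 6 genes in each library against minutes after transfer (categories evenly spaced), with 1 mM in grey, 10 mM in red, lines through group means and symbols for the 4 batches. KRP6 is highest at 15 min, where its libraries lie between 24.8 and 31.9 CPM. The batch means of KRP2 and CYCD3;1 differ, although the order of the batches changes in some groups.

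KRP2 (AT3G50630), an inhibitor that acts in lateral root initiation, was lower at 15 min than at 0 min in every batch. At 0 min it stood at 31.6, 34.002, 52.6 and 58.7 CPM in replicates 1 to 4. At 15 min it stood at 22.3, 23.9, 33.5 and 36.3 CPM on 1 mM and at 20.14, 24.0, 32.2 and 36.2 CPM on 10 mM. Batches 3 and 4 were the high ones at each time, so the groups overlap although each batch was lower at 15 min. Without a block the changes of -0.61 ± 0.24 and -0.66 ± 0.24 were not called (adjusted p = 0.171 and 0.151, edgeR). With the batch as a block they were -0.61 and -0.65 (adjusted p = 0.000207 and 0.000109), and the values at 45 min, -0.50 on 1 mM and -0.38 on 10 mM, were also called (adjusted p = 0.00387 and 0.0330). At 45 min the 4 root hair markers all had log2 changes below 0 on both concentrations, with COBL9 called lower on 10 mM (-0.55) and, with the block, on 1 mM (-0.51). Of the 10 tested meristem and root cap markers 3 were called higher at 45 min on 1 mM and 0 on 10 mM (1, SHR, with the block). The part of these markers in the KRP2 values was not tested. Within batches 1 to 4 the log2 change of KRP2 at 15 min was -0.50, -0.50, -0.64 and -0.69 on 1 mM and -0.64, -0.49, -0.70 and -0.69 on 10 mM. At 45 min KRP2 was lower in 4 of 4 batches on 1 mM. On 10 mM its change at 45 min was 0.21, -0.46, -0.53 and -0.51, so batch 1 was higher than at 0 min. At 90 and 180 min the log2 change of KRP2 lay between -0.14 and 0.088 on both concentrations.

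KRP7 (AT1G49620), described after its values were seen, stood at 6.73, 6.56, 5.83 and 3.85 CPM at 0 min and at 3.18, 3.76, 1.52 and 3.28 CPM at 15 min on 1 mM. The groups do not overlap. Its change of -0.96 ± 0.37 was called with the block (-0.98, adjusted p = 0.0280, edgeR) and not without it (adjusted p = 0.132). On 10 mM at 15 min it stood at 5.54, 5.31, 3.69 and 3.65 CPM, which overlaps 0 min, with a change of -0.33 ± 0.35 (adjusted p = 0.942, and 0.657 with the block). The difference between the concentrations at 15 min, 0.64 ± 0.38, was the highest of the 45 and was not called (adjusted p = 1.00). Another 3 inhibitors had an unadjusted p under 0.05 at 15 min without passing: KRP4 (-0.49) on 1 mM, KRP5 (-0.39 on 1 mM and -0.49 on 10 mM) and SIM (-0.42 on 10 mM). At 15 min 6 of the 45 genes on 1 mM and 5 on 10 mM had such a p (13.3% and 11.1%), against 14.4% and 11.8% of all genes. No marker list of root cell types had a called gene at 15 min. The 4 root hair markers summed to 276 to 298 CPM at 15 min on 1 mM and 279 to 343 CPM on 10 mM, against 309.5 to 350.4 CPM at 0 min, and their part in the inhibitor values was not tested.

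Of the E2F, DP and RBR group, 0 of 6 passed any test against 0 min, with median changes from -0.036 to 0.25 over the 8 comparisons. WEE1, counted by few reads, stood between 0.636 and 5.95 CPM and passed no test.

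The batches differed in some of the 45 genes, as they did in many of all genes tested. In the fit with group and batch terms 13 of 45 genes (28.9%) differed among the 4 batches (edgeR), against 39.3% of all genes. KRP2 had the smallest adjusted p (1.15e-10), with batch means of 30.7, 30.2, 43.0 and 50.1 CPM over 9 libraries each. CYCD3;1 followed (5.25e-07) with batch means of 33.7, 27.3, 18.9 and 19.5 CPM. Batches 3 and 4 were the high ones for the inhibitor and the low ones for the cyclin. The labels say only that these are batches.

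Other genes of the cell cycle, taken from lists by function, included few that were called. Of 19 tested genes of DNA replication (of 20 listed) 0 were called in any comparison between 2 groups, with or without the block. Of 14 genes of mitosis and cytokinesis, POK2, a kinesin that guides the division plane, fell at 90 min on 1 mM (-0.88 ± 0.28, adjusted p = 0.0406, edgeR), and with the block AT1G63100 was also called at 90 min on 10 mM (-0.55, adjusted p = 0.0487). Among 22 other regulators 3 were called in at least 1 of the 8 comparisons against 0 min. Each single comparison called 5.16% to 7.53% of all genes, and the share of all genes called in at least 1 of the 8 was not computed. SMR5, a SIM-related inhibitor known to respond to stress, fell at 90 min by 1.28 ± 0.27 on 1 mM and 1.39 ± 0.27 on 10 mM on the log2 scale (adjusted p = 0.00116 and 0.000500). At 180 min it fell by 2.16 ± 0.30 and 2.23 ± 0.29 (adjusted p = 1.78e-06 and 6.15e-07). SMR4, of the same family, rose at 15 min on 1 mM (1.01 ± 0.29, adjusted p = 0.0223), and AT1G08180 fell there (-0.81 ± 0.26, adjusted p = 0.0458). In 10 mM against 1 mM 0 genes of these 3 lists were called at any time by edgeR. The mitosis and cytokinesis genes summed to 172 to 199 CPM at 180 min on 10 mM. All 4 of these libraries lie below those of 1 mM at 180 min (208 to 223 CPM) and of 0 min (203 to 256 CPM). The DNA replication sums of the same groups overlap, and no difference between sums was tested.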

How the data were processed

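RNA of 36 root samples was measured by BrAD-seq, which sequences the 3' end of transcripts, per the labels' protocols. Each library has 1 deposited table of unnormalised read counts for each gene, and FastQC, Bowtie2, SAMtools and HTSeq with build TAIR10 are named per the submitters' processing notes. Their versions, settings, annotation and strand use were not given in the sources used here. The tables held 0 summary lines, and 0 columns lacked a sample.

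Groups and batches came from the labels. The labels do not say that batches are separate cultures, so the p-values may measure technical spread only. Of 54 pairs of replicates none agreed within sampling noise (chi-square per degree of freedom 2.65 to 11.6). Because the labels name a batch, same-numbered libraries are paired; their deviations from group means correlated at -0.0060 to 0.409, and 26 of 32 were above 0.1.

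edgeR 4.0.16 in R 4.3.3 (limma 3.58.1) fitted all 36 libraries with 1 term per group and no block, with TMM scaling, filterByExpr and quasi-likelihood tests, two-sided. P-values were adjusted by Benjamini-Hochberg over 18768 genes and called at 0.05. The common biological coefficient of variation came to 17.0% (12.1% when blocked by batch). SEs were computed from log2 change and F. Within-batch log2 values used a pseudocount of 0.5 CPM. Alternatives were RLE scaling, no filter (25304 genes), DESeq2 1.42.0, the replicate block, a fit of only the 8 libraries in question, and omission of each library or batch; a batch test and wider use of fits without replicate 4 of 1 mM 45 min were added after seeing the data. The script was tested on simulated counts. Intervals and levels cover the spread between libraries, and reads without molecular identifiers are not independent molecules.

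The 45 genes and all lists were chosen with earlier results of these data known. Full values are given for genes called in a comparison of 2 groups, the mean of 4 times or the test between times, and, whatever their result, for CYCB1;1, CYCD3;1, CYCD4;1, CYCD6;1, KRP2, E2FA, CDKB2;1 and SIM; CYCD3;3, KRP7, CYCD1;1 and CYCD2;1 fall outside that rule. From the other cell cycle lists up to 3 called genes per comparison are named. RefSeq's table for TAIR10.1 matched 32548 identifiers and gave names and sequences.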

Additional observations from a re-analysis of the deposited data

Results flagged for a closer look

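In 3 of 117 gene-and-group sets of 4 libraries, over 13 genes described in detail, 1 library stood far from the other 3 by Dixon's ratio; chance flags about 1 in 20 such sets. CYCD3;3 stood at 50.0 CPM in replicate 2 of 1 mM 15 min, against 33.1 to 35.3 CPM in the others. CDKB2;1 stood at 63.4 CPM in replicate 1 of 1 mM 90 min, against 37.3 to 40.8 CPM. KRP7 stood at 9.20 CPM in replicate 1 of 1 mM 45 min, against 2.12 to 2.99 CPM.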

How the results depend on the processing

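No core cell cycle gene was called between 10 mM and 1 mM at any time, in the mean or between times under any alternative tried; in the mean of 4 times DESeq2 gave 19 of the 45 no adjusted p. Against 0 min, the replicate block raised the genes called on 1 mM at 15, 45, 90 and 180 min to 3, 2, 3 and 2, and on 10 mM at 15, 45 and 90 min to 2, 2 and 2; it added calls and ended none. DESeq2 called 1 gene at 90 min and 2 at 180 min on 1 mM. With only the 8 libraries compared, 0 were called on 1 mM at 45 and 180 min and 1 at 90 min. Leaving out a library or batch gave 0 to 1 called gene in each comparison against 0 min except 0 to 2 on 10 mM at 90 min, and 2 to 5 for any difference among the 9 groups; the 45 min count on 10 mM was 0 throughout. RLE scaling ended the call for KRP2, any difference among the 9 groups (adjusted p = 0.0528). In the mean of 4 times, uncalled differences near 0 changed sign, for CYCD3;1 with the replicate block (-0.0093) and SIM without the filter (0.0026). On leaving out libraries or batches such values ranged from -0.064 to 0.019 (CDKB2;1), -0.097 to 0.070 (CYCD3;1), -0.27 to 0.28 (CYCD6;1), -0.095 to 0.016 (KRP2) and -0.057 to 0.056 (SIM). Genes of few reads, such as CYCA2;1 with 238 in all, allow only wide intervals.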

Other observations

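CYCD1;1, a D-type cyclin gene described after its values were seen, was called for any difference among the 9 groups once batch was blocked (edgeR, adjusted p = 0.0435) and not otherwise (adjusted p = 0.250). CYCD2;1, likewise chosen after its values were seen, stood at 7.03, 6.86, 7.12 and 15.5 CPM in replicates 1 to 4 of 1 mM 45 min, against 5.69, 6.56, 3.55 and 5.29 CPM at 0 min. The groups do not overlap, and the highest value is that of the shallowest library; the log2 change of 0.72 ± 0.27 was not called (adjusted p = 0.104, edgeR).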
